A study of Drosophila melanogaster with 4 samples.

Results

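The long chains of Groucho sites in white prepupae of Drosophila melanogaster are stretches of chromosome in which called Groucho peaks followed one another at short distance. Members were chosen by the position and width of the called peaks. Peaks on the arms 2L, 2R, 3L, 3R and 4 were sorted by position, and neighbours were joined when fewer than 5000 bp lay between the end of one and the start of the next. Chains of at least 10 peaks were kept, and peaks wider than 2000 bp were then set aside. This gave 1799 member peaks in 123 chains, out of 9730 peaks on the 5 arms and 11165 in the whole list (16.1%). The chains also contained 81 peaks over 2000 bp, which counted towards chain length and spacing but were not members.

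The series holds 2 Groucho ChIP-seq libraries and 2 input DNA libraries, all from white prepupae, animals at the start of metamorphosis. Both groups were of the strain Y cn bw sp and share its genotype. It has y[1] with oc[R3.2], then cn[1], bw[1] and sp[1] with Gr22b[1], Gr22d[1] and CG33964[R4.2], and further LysC[1], lab[R4.2], MstProx[1] together with GstD5[1] and Rh6[1]. No treatment is named. No dissected tissue is named, so cell types cannot be told apart in the list. The antibody was a rabbit polyclonal serum raised against part of the Groucho protein. The file analysed is a single peak list, without values for individual libraries. Replicate error therefore cannot be given, and read depth is unknown. Each peak has a score given by the authors' caller, MACS, on a scale that is not stated, and this score was used only to rank and describe peaks within the list.

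Groucho is a co-repressor of the Groucho/TLE family. It does not bind DNA by itself and is brought to enhancers by DNA-bound repressors such as Hairy, Engrailed and Dorsal. It can form oligomers through its amino-terminal domain, it contacts histones and histone deacetylases, and both short-range and spread-out occupancy along chromatin have been described for it. Chains of closely spaced peaks are therefore a form in which its binding can appear, but separate recruitment sites and a continuous domain divided by the caller cannot be told apart in the peak list. Positions and widths of these same peaks chose the members, and the scores come from the same comparison of ChIP with input. All values below are for this reason descriptions of the list, without tests, and the intervals cover counting error only. Genes were not assigned to the chains, because the positions are on FlyBase release 5 and no annotation of that release was used here.

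Most long chains were compact. The median chain held 13 peaks (quartiles 11 and 17) in 23.8 kb, with an exact 95% interval of the median length of 20.9 to 25.6 kb. The shortest chain spanned 11.03 kb and the longest 115 kb. By peak number, 24 chains had exactly 10 peaks, 55 had 11 to 14, 26 had 15 to 19, 11 had 20 to 29 and 7 had at least 30. Those 7 chains held 264 of the 1799 members. Together the chains occupied 3.48 Mb, or 3.58% of the 97.1 Mb of the 5 arms, and contained 18.5% of the peaks on those arms as members.

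A chain was on average more open sequence than peak. Peaks covered a median of 39.4% of a chain's length (95% interval 35.3 to 41.2%), with quartiles of 31.0 and 47.1% and a range of 19.8 to 68.4%. Over the rest of the 5 arms, peaks covered 4.97% of the sequence, a difference that follows from how the chains were chosen. The 81 broad peaks made up 4.31% of the peaks in the chains and 17.9% of the covered bases. Covered share was only weakly related to the number of peaks across the 123 chains (Spearman's rho = 0.149), whereas length followed it more closely (rho = 0.783). Both relations are descriptions of chains built from the same peaks.

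**Figure D1:**
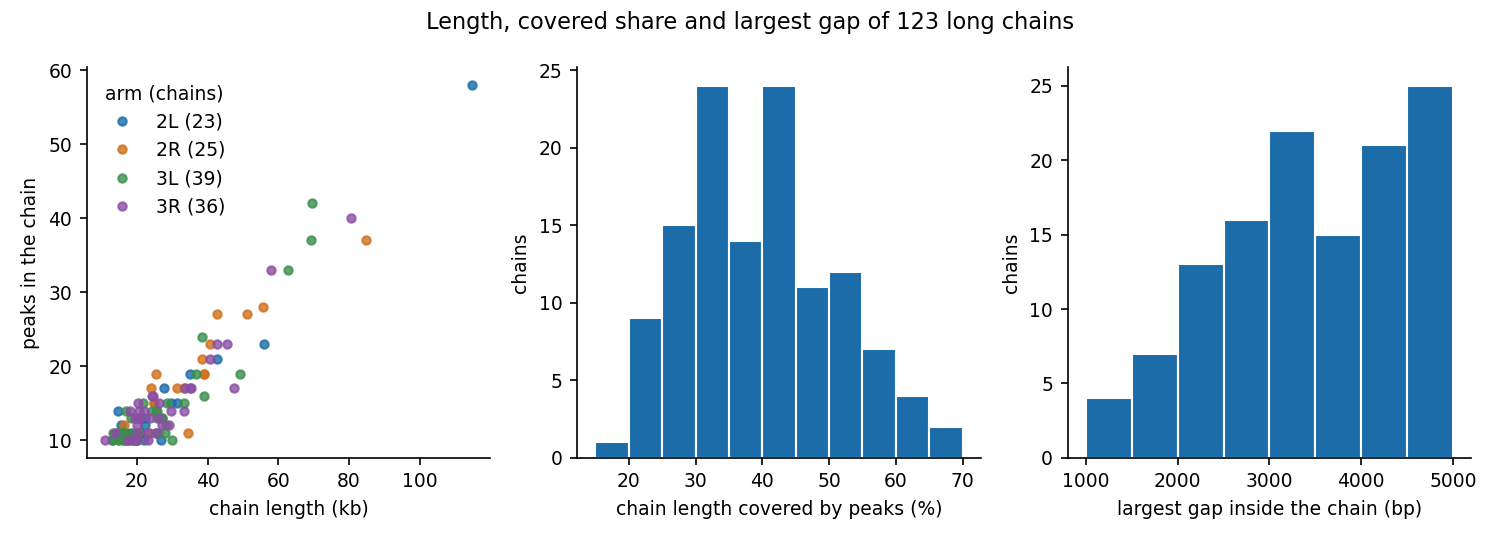
Geometry of the 123 long chains. Left, chain length in kb against the number of peaks, 1 point per chain coloured by arm; middle and right, histograms of the share of chain length covered by peaks and of the largest inner gap in bp. Most chains lie below 20 peaks and 40 kb, a single 2L chain of 58 peaks and 115 kb stands apart, and in 46 chains the largest gap is 4000 bp or more.

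Inside the chains the peaks were close. The 1757 gaps between neighbours had a median of 769 bp (95% interval 721 to 825 bp), with quartiles of 340 and 1698 bp. More than a kilobase was the less common spacing, since 1027 gaps (58.5%) were under 1000 bp, and 631 (35.9%) were under 500 bp. The smallest gap was 50 bp, and 100 gaps (5.69%) were under 100 bp, spread over 65 chains. Distances between peak centres had a median of 1571 bp, with quartiles of 1036 and 2511 bp. Each chain nevertheless tended to have at least 1 wide gap. The largest gap of a chain had a median of 3492 bp, and it was 4000 bp or more in 46 chains and under 3000 bp in 40.

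The end gaps had a slightly higher median than the others, with overlapping intervals. The gap between a terminal peak and its neighbour had a median of 856 bp over 246 chain ends (95% interval 739 to 1044 bp). The 1511 gaps further in had a median of 756 bp (684 to 809 bp). Every chain supplies the same number of end gaps, whereas larger chains supply more of the others, and the part of chain size was not tested. Beyond the chain, the distance to the next peak on the arm had a median of 10520 bp, with quartiles of 7123 and 17782 bp. That outer distance was below 10000 bp at 110 of 246 ends, so many chains ended in a gap not far above the joining distance. The largest gap inside a chain was 4995 bp and the smallest outside one was 5003 bp.

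Chains just below the size limit looked much like those just above it. The 24 chains of 10 peaks had a median length of 18696 bp and a median covered share of 39.2%, against 15989 bp and 40.1% for the 34 chains of 9. Median scores of peaks up to 2000 bp were 20.2 in chains of 10 and 19.85 in chains of 9. At the width limit, the widest members measured 1998, 1993 and 1983 bp and scored 53.49, 110.06 and 25.77. The narrowest peaks set aside measured 2024, 2034 and 2037 bp and scored 43.04, 90.04 and 198.16.

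Peaks in long chains were packed more tightly than peaks in smaller chains, as their choice would give. The median gap was 769 bp in long chains and 1016 bp over the 4519 gaps in chains of 2 to 9 peaks, and 58.5 and 49.5% of the gaps were under 1000 bp. The share of gaps under 100 bp was 5.69% in long chains and 4.80% in chains of 2 to 9 peaks. It was 7.13% in chains of 10 to 14 peaks, 3.69% in those of 15 to 19, 5.2% in those of 20 to 29 and 4.76% in those of 30 or more. Below the size limit the median gap fell with chain size. It was 1184.5 bp in chains of 2 peaks, 1086 bp in those of 3 or 4 and 944 bp in those of 5 to 9. Among long chains the median gap hardly moved with size. It was 774 bp in chains of 10 to 14 peaks, 843 bp in those of 15 to 19, 690 bp in those of 20 to 29 and 736 bp in those of 30 or more.

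The member peaks were somewhat wider and higher in score than other peaks up to 2000 bp. Their median width was 502 bp (95% interval 484 to 526 bp), against 448 bp in chains of 2 to 9 peaks and 390 bp for the 1525 single peaks. Their median score was 19.85 (18.73 to 20.99), with quartiles of 12.63 and 41.04, against 17.66 in chains of 2 to 9 peaks and 16.6 for single peaks. Scores above 100 occurred in 141 members (7.84%), with a background of 5.43% among all 9483 peaks up to 2000 bp on the 5 arms. In chains of 2 to 9 peaks that share was 5.16%, and for single peaks it was 3.67%. Classes on both sides of the size limit were close in score. The median was 18.38 (17.82 to 18.98) in chains of 5 to 9 peaks and 18.2 (16.95 to 19.48) in chains of 10 to 14. It was 21.37 in chains of 15 to 19 peaks, 20.6 in those of 20 to 29 and 22.5 in those of 30 or more.

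Score and width moved together, as both are read from the same peak signal. Score followed width across the 1799 members (Spearman's rho = 0.782, Pearson's r = 0.566), much as it did in chains of 2 to 9 peaks (rho = 0.771) and in single peaks (rho = 0.716). Within ranges of width the medians were close. Peaks of 201 to 300 bp had a median score of 11.12 in long chains and 10.82 elsewhere, and peaks of 301 to 500 bp had 15.56 in both. In long chains and elsewhere, the medians were 26.57 and 26.19 at 501 to 800 bp, 43.75 and 44.02 at 801 to 1200 bp, and 70.79 and 74.40 at 1201 to 2000 bp. The mix of widths differed, with 10.95% of members and 6.56% of the other peaks over 1200 bp, and 21.3 and 25.7% at most 300 bp. The part of width in the difference of scores was not tested.

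**Figure D2:**
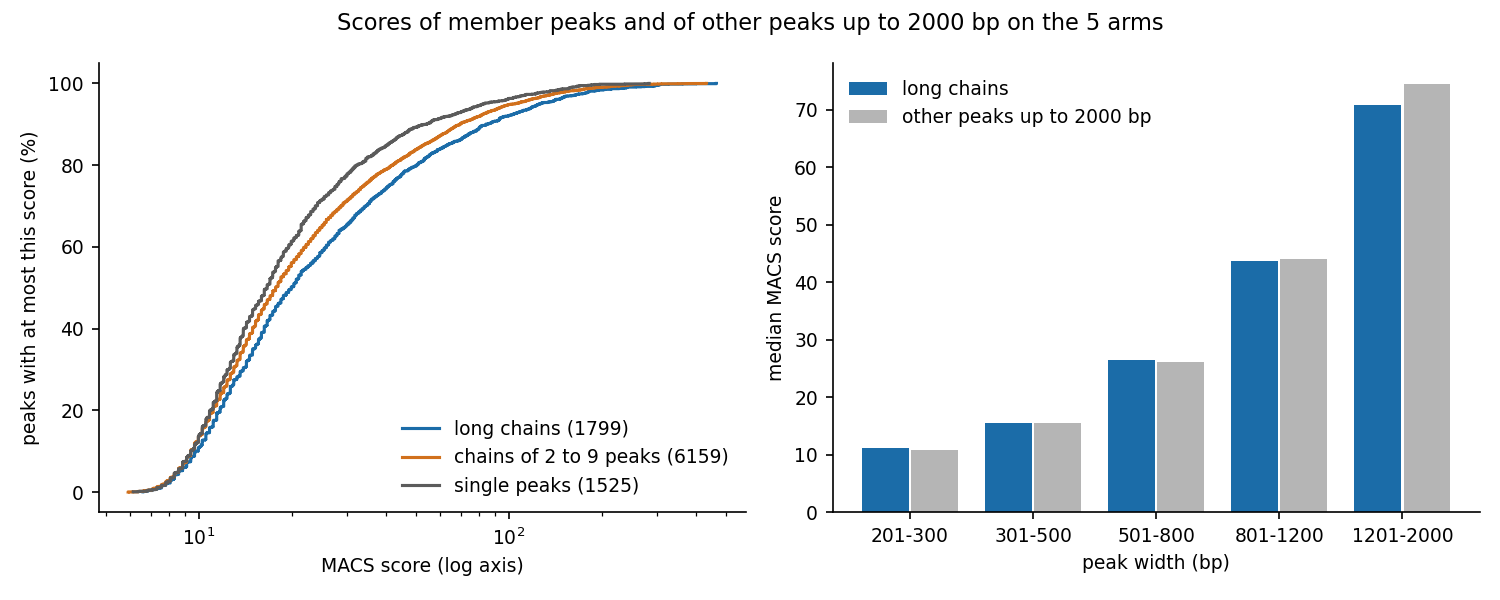
Scores of peaks up to 2000 bp on the 5 arms. Left, cumulative share of peaks (percent) against MACS score on a log axis for long chains, chains of 2 to 9 peaks and single peaks; right, bars of the median score by range of peak width in bp, long chains beside all other peaks. The curve of long chains lies to the right of the others, with medians of 19.85, 17.66 and 16.6, while the paired bars differ by at most 3.61 score units.

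In many chains, 1 or a few peaks stood far above many low ones. The highest member of a chain had a median score of 118, against a median of 19.5 for the chain's median member, and the difference between them had a median of 92.1 score units (quartiles 61.4 and 159). The second-highest member scored a median of 41.4 units below the highest. Some chains were flat, and the smallest difference between highest and median member was 11.9 units. Of the 123 chains, 78 had at least 1 member over 100, 17 had 3 or more and 45 had none. Of all members, 7.84% exceeded 100. A maximum stands above the median in any group of peaks with such uneven scores. Other groupings of peaks were not compared, so tall peaks among low ones are not shown to be a trait of the chains. Larger chains tended to reach higher scores, with rho = 0.353 between the number of members and the highest score, while their median scores were less related to size (rho = 0.107). A larger chain offers more peaks from which the maximum is taken.

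The highest and second-highest members of a chain were direct neighbours in 21 of 123 chains (17.1%, interval 10.9 to 24.9%). Of all pairs of members in a chain, 15.02% were direct neighbours (mean over chains). For the top pair, the median separation was 5 steps and 8.69 kb. Scores of direct neighbours were nearly unrelated over 1615 pairs of members, with rho = 0.057 across pairs that share chain and library. In 9 of these pairs both members exceeded 100, and in 235 only 1 did. Of all members 7.84% exceeded 100, so a low partner is common in any order of the peaks. The absolute difference between neighbours had a median of 16.9 units and reached 412. High members were not set apart by wider gaps. The nearer gap beside a member over 100 had a median of 396 bp (95% interval 336 to 518 bp), and beside the other 1658 members it was 453 bp (432 to 473 bp).

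**Figure D3:**
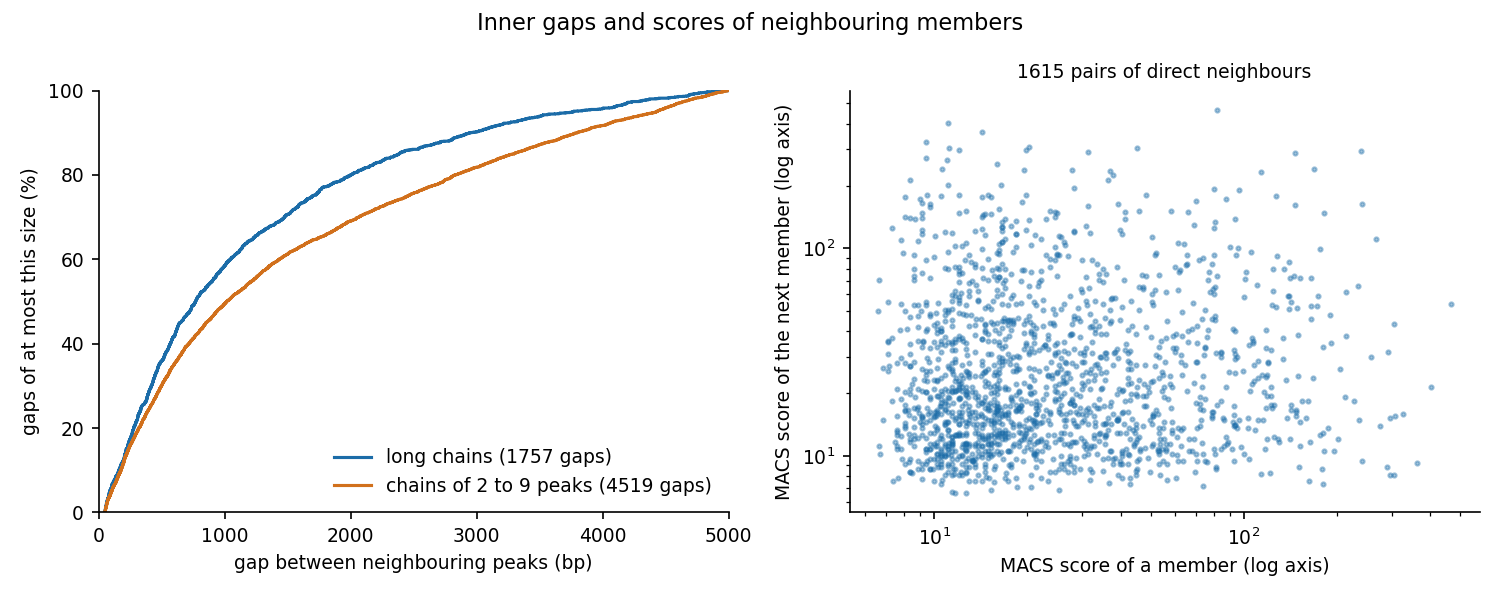
Left, cumulative share (percent) of gaps between neighbouring peaks in bp, for long chains and for chains of 2 to 9 peaks, with medians of 769 and 1016 bp. Right, MACS score of each member against that of the next member of its chain on log axes, 1 point for each of 1615 pairs. High scores are mostly paired with low ones, where only 7.84% of all members exceed 100. The cloud shows almost no trend (rho = 0.057).

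The highest members were spread evenly along the chains. Each chain was divided into 3 equal parts by length, the low, the middle and the high part, named by coordinate. The highest member lay in the low part of 41 chains, in the middle part of 41 and in the high part of 41. The middle share of 33.3% (exact 95% interval 25.1 to 42.4%) compares with 30.1% of all members in that part. With 5 equal parts the counts were 27, 23, 21, 29 and 23. In the 18 chains of 20 or more peaks the highest member lay in the low, middle and high part 3, 7 and 8 times, where these parts held 32.9, 31.6 and 35.5% of those chains' 510 members. In the 79 chains of 10 to 14 peaks the counts were 31, 26 and 22.

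The widest member lay in the low part of 34 chains, the middle part of 45 and the high part of 44. The middle share was 36.6% (28.1 to 45.7%), with the same background of 30.1%. With 5 equal parts the counts were 20, 26, 25, 24 and 28. The highest member was also the widest in 39 chains (31.7%, interval 23.6 to 40.7%), and it was among the 3 widest in 88 (71.5%). Highest and widest member lay in the same of the 3 parts in 68 chains (55.3%). These 88 and 68 chains include the 39 by construction, so they do not show that separate highest and widest peaks lie near each other. A tie for the highest score occurred in 1 chain, where the first peak by position was taken, and none occurred for the largest width.

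**Figure D4:**
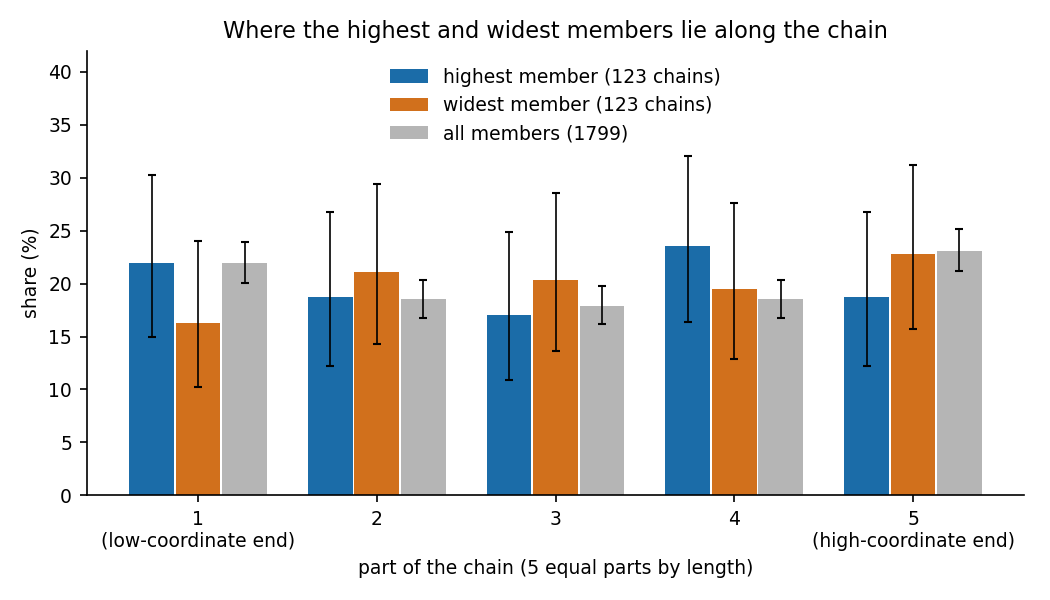
Share (percent) of highest members, widest members and all members in each of 5 equal parts of the chain length, from the low-coordinate end to the high-coordinate end. Bars give the share of 123 chains or of 1799 members and lines the exact 95% binomial interval; each part holds 17.1 to 23.6% of the highest members and 16.3 to 22.8% of the widest, with overlapping intervals within each of these 2 kinds, while all members are more frequent in the outer parts (22.0 and 23.1%) than in the middle one (17.9%).

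Peaks at the chain ends were somewhat narrower and lower in score than those inside. The 235 terminal members had a median score of 17.66 (95% interval 16.25 to 19.11) and a median width of 411 bp (371 to 465 bp), against 20.61 (19.22 to 21.37) and 522 bp (500 to 547 bp) for the 1564 inner members. Members in place 6 or further, counted from the nearer end, had a median score of 21.76 and a median width of 546 bp. The smallest chains have no such place, and a larger chain supplies more inner members than a smaller one. Among the size classes of long chains, the smallest class had the lowest median score and the lowest median width. Place is therefore mixed with chain size in these comparisons, and the part of chain size was not tested. Terminal peaks were 13.1% of all members, and they were the highest member in 18 chains (14.6%, interval 8.91 to 22.1%) and the widest in 9 (7.32%, interval 3.40 to 13.4%). The 13.1% is pooled over members, so larger chains, with fewer ends per peak, weigh more in it than in the shares of chains. A terminal share averaged over chains was not computed, so the pooled value is not a matched background. Scores over 100 occurred in 5.53% of terminal and 8.18% of inner members. Both measures depend on where the joining ends a chain, which was not tested.

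Broad peaks over 2000 bp sat in 52 of the 123 chains. In 35 of these chains there was 1, in 17 there were 2 or more, and the most was 6. Long chains thus held 81 of the 247 broad peaks on the 5 arms (32.8%), beside 19.3% of all peaks on those arms. Their median score was 151 and their median width 2612 bp, and in 29 of the 52 chains (55.8%) a broad peak, not a member, was the highest peak. They lay in the low, middle and high part of their chains 31, 28 and 22 times. With broad peaks counted, the highest peak of a chain lay in the low, middle and high part 42, 37 and 44 times.

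Chains with and without a broad peak had members of similar score. The median covered share was 45.4% in chains with a broad peak and 33.0% in the 71 chains without, a difference to which the broad peaks' own bases contribute by construction, and the median peak number was 15 and 11. The chain's median member score was 19.9 with a broad peak and 19.1 without, and its highest member had a median of 119 and 118. The 131 members directly beside a broad peak had a median score of 21.76 (16.6 to 28.3) and a median width of 582 bp, and the other 1668 members had 19.85 (18.7 to 20.6) and 497 bp.

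Among single chains, that at 14471617 to 14586409 on 2L had the most peaks, 58, of which 56 were members. Peaks covered 42.1% of it, the median gap was 801 bp and the largest 4779 bp. It opened with sparse peaks: the first 3 scored 24.41, 42.75 and 32.15 and were separated by gaps of 4637 and 4779 bp. Its highest member, at 14489940 to 14491367, scored 401.26 and stood 16.6% along the chain between neighbours of 11.12 and 21.37. Members over 100 then occurred near the middle, with 108 and 103.92, and towards its high-coordinate end, with 189.97 and 141.61. The 2 broad peaks scored 109.24 and 187.54 and lay in that stretch too. The widest member, 1665 bp, scored 93.29 and lay 27.5% along.

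The 3R chain at 17405856 to 17486434 held 40 peaks in 80.6 kb, all of them members. It was the least covered of the 10 chains with the most members, at 30.1%, with a median gap of 1184 bp, yet its median score of 30.92 was higher than in the 2L chain, where it was 26.19. Its highest member scored 181.09 at 31.6% of the length and 5 members exceeded 100. The 3L chain at 17940378 to 18010037 was denser and lower in score. It held 42 peaks in 69.7 kb at a median gap of 449 bp, its median score was 17.31, and only 1 of its 40 members exceeded 100, at 104.6. That member, 1297 bp wide, was also its widest, while its highest broad peak scored 234.33.

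Further large chains had their highest member beyond the middle of their length. On 2R, the chain at 7356892 to 7441571 held 37 peaks in 84.7 kb, and its highest member, 256.35, lay 69.2% along. On 3L, the chain at 8644364 to 8713709 held 37 peaks in 69.3 kb, 5 of them broad, and had 6 members over 100, more than any other long chain. Its highest member scored 266.16 at 65.5% of the length, while its highest broad peak scored 312.93. The 3R chain at 12028785 to 12086850, with 33 peaks, was 56.5% covered at a median gap of 449 bp and had its highest member, 232.73, at 68.3%.

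The remaining 4 of the 10 chains with the most members differed in spacing, covered share and scores. The 3L chain at 723655 to 786537 held 33 peaks, 4 of them broad, and no member over 100. Its highest member, 91.33, was also its widest and lay 91.3% along, while its highest broad peak scored 241.41. On 2R, the chain at 9877753 to 9928925 held 27 peaks, all members, with 297.11 at 67.9%. The chain at 4518760 to 4561495 on 2R had 27 peaks in 42.7 kb, the smallest median gap of all long chains, 226 bp, and a covered share of 60.4%. The 3L chain at 16138438 to 16176897 had 24 peaks, all members, and a highest score of 149.12 at 49.9%.

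**Figure D5:**
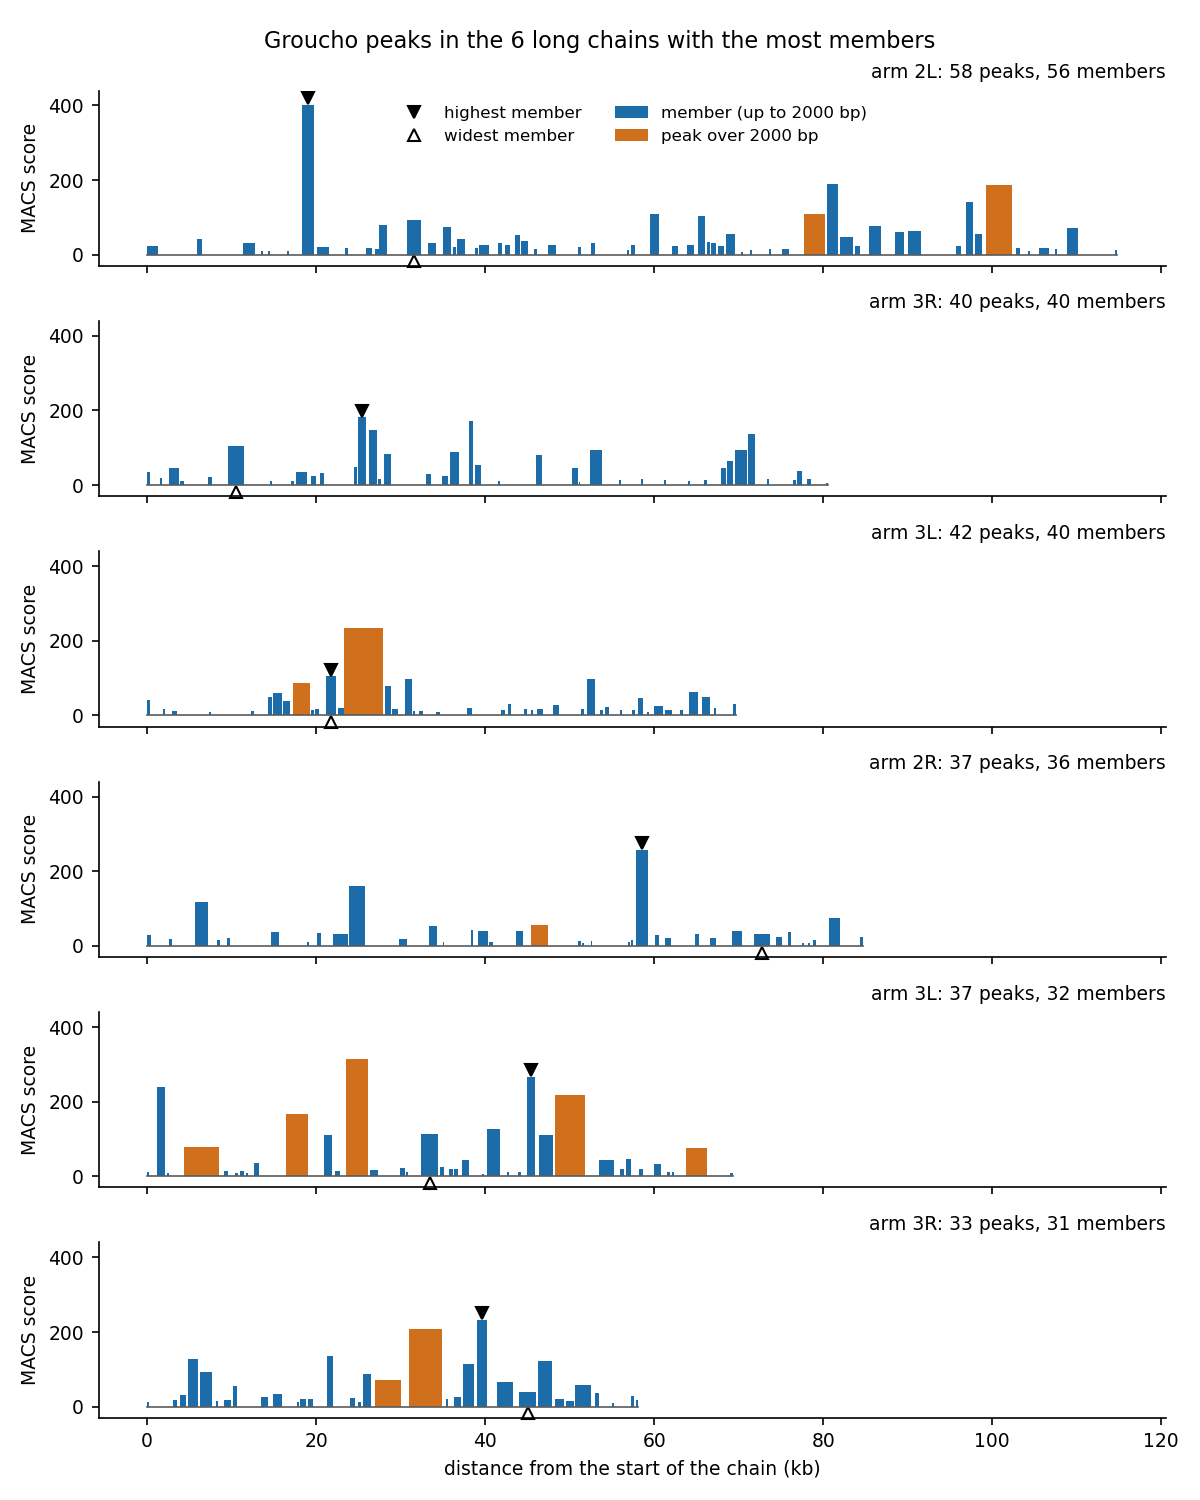
The 6 long chains with the most members. Each bar is a peak, drawn at its distance in kb from the start of its chain, with its width to scale and its MACS score as height; blue bars are members, orange bars peaks over 2000 bp, filled triangles mark the highest member and open triangles the widest. The highest members, between 104.6 and 401.26, lie from 16.6 to 69.2% of the chain length. Tall bars stand among many of low score, where only 7.84% of all members exceed 100.

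At the extremes of covered share, the 3R chain at 19728804 to 19748779 was 68.4% covered by 10 peaks, 2 of them broad. The 2R chain at 14189950 to 14245773 reached 67.9% with 28 peaks, 6 of them broad, and the 3R chain at 21821847 to 21869411 reached 63.0% with 17 peaks. A pair of 3L chains followed, at 1087752 to 1102832 with 62.1% and at 16004253 to 16022524 with 61.3%. All 5 contained at least 1 broad peak. The least covered chains had none. They were the 3L chain at 12535022 to 12584265, where 19 peaks covered 19.8% of 49.2 kb, the 3L chain at 5603650 to 5633552 with 21.0% and the 2L chain at 1648819 to 1670760 with 21.9%.

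The 3R chain at 21821847 to 21869411 had a highest member of 123.38. Its highest broad peak, not a member, scored above every member of the long chains. By the median score of members, this chain came first with 61.84. The next were on 3L at 17599813 to 17619427, with 43.17, and on 2R at 7060883 to 7095275, 6420984 to 6460012 and 14189950 to 14245773, with 42.86, 41.67 and 38.66. At the low end the 3L chain at 2480223 to 2494793 had a median of 11.41 and a highest member of 201.46, a single tall peak among low ones. The 2L chain at 9222113 to 9240423 had a median of 12.02 and a highest member of 147.61, and the 3R chain at 6389302 to 6415531 had 12.95 and 92.63.

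The 3 shortest chains had 10 or 11 peaks each and no broad peak. The 3R chain at 27116739 to 27127767 held 10 peaks in 11.03 kb, with gaps of 159 to 1124 bp and no member above 35.02. The 2L chain at 2480479 to 2493392 held 10 peaks in 12.9 kb and had its highest member, 110.06, as its first peak. The 3L chain at 2795437 to 2808628 held 11 peaks in 13.2 kb, with a highest member of 83.66.

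The highest member of all lay on 2R at 18565002 to 18566750, with a score of 466.72 and a width of 1749 bp, as the peak of rank 7 in a chain of 17. Gaps of 102 and 312 bp separated it from its neighbours. Next came the 2L member of 401.26 described above and a 2L member at 3579874 to 3581256 with 362.36, at 80.5% of a chain of 19. Of the 10 highest members, 3 were under 800 bp wide, while still wider than the median member of 502 bp. The 2R member at 8902923 to 8903647 scored 326.13 at 725 bp, the 3L member at 1586259 to 1586956, the highest of its arm, scored 308.25 at 698 bp, and the 3R member at 9638282 to 9639056, the highest of its arm, scored 304.52 at 775 bp. The other 4 scored 297.11 to 306.39 at widths of 1410 to 1954 bp. These 10 members lay from 16.6 to 86.1% along their chains, and none was a terminal peak.

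Long chains occurred on all 4 large autosome arms. The numbers were 23 on 2L, 25 on 2R, 39 on 3L and 36 on 3R, or 1.03, 1.18, 1.60 and 1.29 per Mb, and members were 17.3, 17.1, 21.2 and 18.1% of each arm's peaks in that order. Chromosome 4 had 10 peaks and none of these chains, its largest group being 4 peaks. The chains of the 4 arms were alike in form. Median lengths were 21.9 kb on 2L, 24.96 kb on 2R, 21.8 kb on 3L and 24.0 kb on 3R, and median covered shares 42.4, 39.6, 36.2 and 40.2%. Median inner gaps were between 744 and 810 bp. Members had median scores of 21.37 on 2L, 20.99 on 2R, 18.38 on 3L and 19.1 on 3R, and 10.1, 8.82, 6.42 and 7.12% of them exceeded 100.

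The place of the highest member varied between arms within small numbers. It lay in the low, middle and high part 9, 5 and 9 times on 2L, 9, 8 and 8 times on 2R, 13, 12 and 14 times on 3L and 10, 16 and 10 times on 3R. The highest member was the widest in 8 of 23 chains on 2L, 2 of 25 on 2R, 16 of 39 on 3L and 13 of 36 on 3R. The differences between arms were not tested.

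Some chains lay next to each other. The distance from a long chain to the next on the same arm had a median of 404 kb (95% interval 278 to 564 kb), with quartiles of 154 and 1146 kb, but 15 of the 119 distances were under 50 kb and 6 under 20 kb. The closest pair was on 3L, where the chain of 33 peaks ending at 786537 was followed after 5.10 kb by a chain of 10 peaks at 791642 to 810160. Other close pairs were the 3L chains at 2795437 to 2808628 and 2816643 to 2853339, 8.01 kb apart, and the 2R chains at 7479847 to 7503976 and 7513824 to 7538783, 9.85 kb apart. The widest stretch between successive long chains was on 3L, 2781 kb from the chain at 5844013 to 5863037 to that starting at 8644364.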

How the data were processed

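Libraries were grouped by title into Groucho ChIP (2) and input DNA (2). The deposited GFF3 peak list is on FlyBase release 5, per the file headers, with MACS as source. The submitters' processing notes name BDGP5, BWA, MACS2 and CASAVA (1.7.0.2, 1.7.0.3); for the peak threshold, read filters and pooling, the setting is not given in the sources used here. Each score is the authors' deposited value, on an unstated scale. Positions are 1-based. Members and naming rules were chosen with earlier results of these data known. The rule named chains by most members (10), extremes of length, covered share and median score, and the top of each arm; it named the 10 highest members, the highest of each arm and those nearest the width limit. Close chain pairs, the largest distance between chains and single peaks inside the 2L chain of 58 were named after their values were seen.

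Place along a chain was the distance of the peak centre from the chain start over chain length, and arm length the end of the last peak. Intervals are exact order-statistic (medians) or Clopper-Pearson (shares) at 95%. The chain builder was checked on simulated lists. The 6 alternatives changed the joining distance, chain size, broad peaks, score threshold and measure of place. The release 6 gene table was not used, and no sequence is shown. Calculations used Python 3.11.15, numpy 2.4.6, pandas 2.3.3, scipy 1.17.1 and matplotlib 3.10.9.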

Additional observations from a re-analysis of the deposited data

Results flagged for a closer look

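The X chromosome was outside the 5 arms described, and its peaks also form chains. By the same rule it had 9 chains of 10 or more peaks, with 117 members among its 1397 peaks (8.38%) and 6 broad peaks. They held 10 to 21 peaks in 17.3 to 43.5 kb, with a median covered share of 35.5%, a median gap of 1019 bp and a median member score of 21.37. The highest member lay in the middle of 3 equal parts in 2 of the 9, as did the widest. The 38 peaks on heterochromatic or unplaced sequences formed no group of more than 2.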

How the results depend on the processing

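Under the 6 alternatives, the share of chains with the highest member in the middle of 3 equal parts was 30 to 34.1%, and with the widest 31.7 to 43.2%. The share whose highest member was the widest was 25 to 40.7%. Number and geometry followed the joining rule. Joining below 3000 bp gave 69 chains and 925 members, a median length of 19976 bp, a covered share of 50.9% and a median gap of 623 bp. Joining below 7500 bp gave 198 chains and 3011 members, 31445 bp, 30.1% and 906 bp. A minimum of 15 peaks gave 44 chains and 923 members, with a median length of 38497 bp and a median score of 21.37. With only peaks scoring at or above the median of the list (50% setting, 5622 peaks), 20 chains and 241 members were found, with a median length of 26821 bp, a covered share of 48.4% and a median score of 36.56. A higher minimum leaves fewer chains and members by construction, and it drops the chains with the fewest peaks, which tended to be shorter. The joining distance caps the gaps, and a shorter distance can only remove members while a longer one can only add them. The score threshold removes the lower-scoring peaks, which raises the median score by construction. The cause of the other shifts was not tested. Of 47 alternative values, 28 stayed within the 95% interval of the reported value, or within 1.5 times a count. These 28 include values fixed by construction. Keeping broad peaks cannot change the number of chains, their length, their covered share or the gaps.

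No paired analysis was possible because libraries have no values of their own in the list, which also prevents leaving out a replicate. Read depth is unknown, so gaps are stretches without a call and are not shown to lack binding.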
